A study of Mus musculus with 8 samples.

Results

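The genes Gldn, Mmd2, Cib3, Skint7, Dsg1c, Dsg2, Dsp and Jup, were followed in mouse liver. They are 8 of 19560 genes measured, and 93 of 206316 probe sets that carry exactly 1 gene symbol. The first 5 were selected on their large difference between the 2 groups of livers, so their differences are described with no test. Dsg2, Dsp and Jup were selected as partners of Dsg1c in the desmosome, not on a difference of their own, and these 3 were tested.

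Each of 8 arrays held RNA from the snap-frozen liver of 1 male mouse aged 6 weeks. In the 4 Tak1/Casp8 mice the kinase TAK1 (gene Map3k7) and the protease caspase 8 were both deleted in liver parenchymal cells (LPC). In the 4 Tak1/Rip3 mice TAK1 was deleted in those cells, and the necroptosis kinase Rip3 (gene Ripk3) carried a knockout that by its notation covers every cell. All 8 mice thus lacked TAK1 in LPC, and mice with intact TAK1 were not analysed here, so no difference says which group departs from normal liver. The sources used here do not give the driver of the LPC deletions. Differences are those of Tak1/Casp8 from Tak1/Rip3, so a negative value is lower in Tak1/Casp8. The labels do not say whether mice shared a litter or a hybridisation, and p-values measure only the spread between these mice.

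Values are log2 intensities, 1 per probe set and array, and a probe set covers about 1 exon. A gene value is the median over its probe sets, and errors are SDs over 4 arrays unless an SE is named. Both targeted genes that differ between the groups matched the labels: Casp8 was lower in the Tak1/Casp8 livers by 1.31 and Ripk3 was lower in the Tak1/Rip3 livers, with a difference of 0.98 ± 0.17 (SE). Map3k7, deleted in LPC in both groups, read 9.85 ± 0.13 and 9.93 ± 0.10, and its loss could not be checked without mice that keep it. Hepatocyte markers marked the tissue, with a mean level of 13.3 to 13.4 in every array. Of 10, 1 was called: Tdo2 was higher by 0.50 ± 0.10 (SE, limma, Benjamini-Hochberg adjusted p = 0.0183). That call failed on omission of Tak1/Rip3 replicate 4, Tak1/Casp8 replicate 2 or Tak1/Casp8 replicate 3, and with only the brightest probe set (0.40). Tat (0.50) was called higher in 7 of the other settings, among them without Tak1/Rip3 replicate 2 (0.64). Ttr (-0.12) was called lower as the mean over its probe sets (-0.50). The median difference over the 10 was -0.003. Array medians lay between 8.06 and 8.16, and a value under an array's lower quartile, 6.47 to 6.52, is called dim here. Of all genes, 6.69% were called at a Benjamini-Hochberg adjusted p under 0.05 in limma, 2.64% as higher (516 genes) and 4.05% as lower (792 genes). With each array shifted to 1 median this split became 857 higher and 631 lower. An unadjusted p under 0.05 in limma was reached by 21.1% of all genes. Calls in the gene lists below are to be read beside 6.69%, a share at which a list of 10 genes may well hold none. The 2 groups did not overlap for 14.6% of all genes and 11.5% of all probe sets. The median difference over all genes was 0.01, and the median SD was 0.17 in the Tak1/Casp8 and 0.16 in the Tak1/Rip3 livers. In 2 arrays many probe sets fell below the other arrays of their group: 6.05% of probe sets lay at least 1 log2 unit below them in Tak1/Rip3 replicate 2 and 5.51% in Tak1/Casp8 replicate 4, against 1.51% to 1.89% in the others.

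The 5 selected genes belong to no common pathway known in liver. Gldn encodes gliomedin, a Schwann cell protein with an olfactomedin domain that gathers sodium channels at the nodes of Ranvier of peripheral nerve. Mmd2 encodes a membrane protein of the progestin and adipoQ receptor (PAQR) family, Cib3 a small EF-hand calcium-binding protein known from sensory hair cells, and Skint7 an immunoglobulin-domain protein of a family related to butyrophilins, named after the upkeep of intraepithelial T cells by Skint1. Dsg1c encodes a desmosomal cadherin. Desmosomes are adhesive junctions in which the cadherins (desmogleins and desmocollins) hold neighbouring cells together, plakoglobin (Jup) and plakophilins bind the cadherin tails, and desmoplakin (Dsp) ties the complex to keratin filaments. Hepatocytes and bile duct cells build desmosomes mainly with desmoglein 2 (Dsg2), whereas desmoglein 1 is best known from the skin.

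The bases just before the gene start are shown for the gene with the largest decrease and for the selected gene that rests on 1 probe set, because both were dim in one group and clearly above it in the other. They come from the RefSeq upstream windows of assembly GRCm38.p6, are read 5′ to 3′ on the plus strand and end 3 bases before the gene start. Gldn lies at chr9:54286283-54286482 and Skint7 at chr4:111972724-111972923. Capitals mark the only match of each to the motifs searched.
Gldn: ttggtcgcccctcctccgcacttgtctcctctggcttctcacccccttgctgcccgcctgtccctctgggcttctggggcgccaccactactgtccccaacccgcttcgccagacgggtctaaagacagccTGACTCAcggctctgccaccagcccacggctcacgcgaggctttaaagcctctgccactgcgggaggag
Skint7: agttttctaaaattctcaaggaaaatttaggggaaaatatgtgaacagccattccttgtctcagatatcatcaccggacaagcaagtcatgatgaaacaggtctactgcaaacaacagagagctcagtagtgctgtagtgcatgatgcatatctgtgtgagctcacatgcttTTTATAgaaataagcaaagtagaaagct

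The Gldn match is to the AP-1 motif TGANTCA and starts at position -72 from the gene start. The Skint7 match is to the TATA box TATAAA on the other strand, at position -31. Both strands of 250 bases before the start were searched, and 6.75% of 32851 mouse windows of that length held TGANTCA and 12.4% held TATAAA. The other 5 motifs were CCAAT (33.8% of windows), GTTAAT (6.43%), TTGCNNAA (9.56%), TTCNNNGAA (7.02%) and the NF-kB motif (0.356%). Of the 6 members with a window, Mmd2 held 1 CCAAT and Jup 2, and neither the Cib3 nor the Dsp window held a match. These matches describe letters only.

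**Figure D1:**
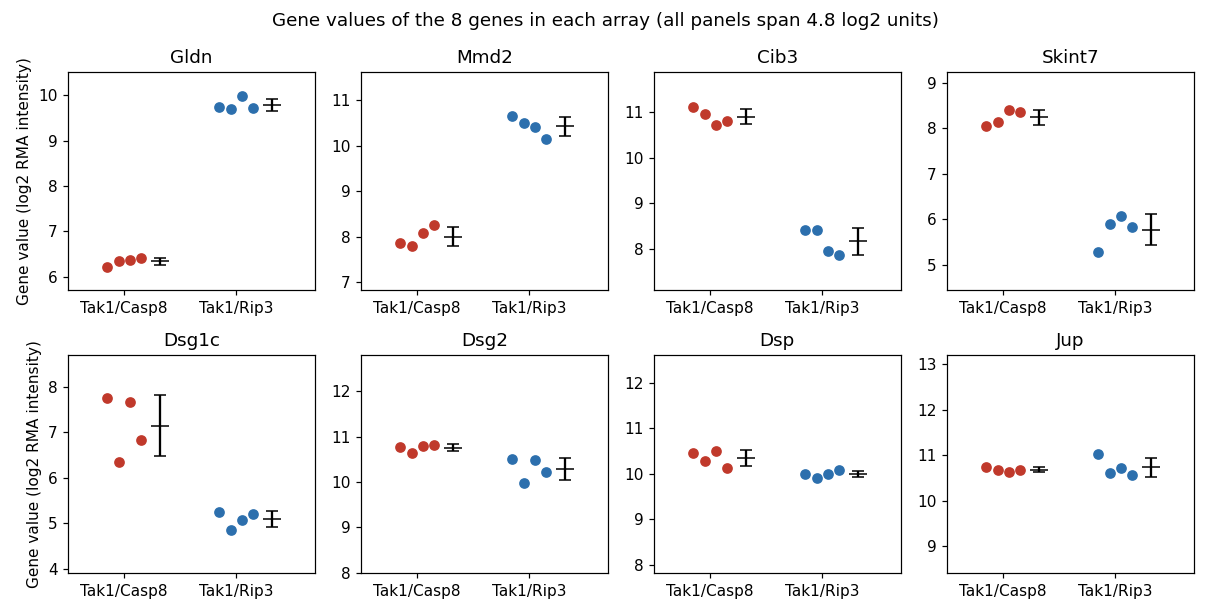
Gene values (log2 RMA intensity) of the 8 genes in each array; points are arrays, grouped as 4 Tak1/Casp8 and 4 Tak1/Rip3 livers, and every panel spans the same number of log2 units. Gldn and Mmd2 lie lower and Cib3, Skint7 and Dsg1c higher in every Tak1/Casp8 array; Dsg2 and Dsp lie higher by under 0.50, and the Jup values overlap.

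Gldn was dim in every Tak1/Casp8 liver and well above the array median in the Tak1/Rip3 livers. Its gene value was 6.23, 6.36, 6.36 and 6.41 in Tak1/Casp8 replicates 1 to 4. In the Tak1/Rip3 livers it was 9.73, 9.69, 9.99 and 9.72. The groups lay far apart, and replicate 3 was the highest of the Tak1/Rip3 livers. The means were 6.34 ± 0.08 and 9.78 ± 0.14, a difference of -3.44 (10.9-fold lower), the third largest in size of all genes. Only 32 genes differed by 2 or more. In bulk liver, fewer cells of a type and less RNA per cell cannot be told apart, here and for every gene below.

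The Gldn difference was uneven over its probe sets. All 11 probe sets were lower in the Tak1/Casp8 livers, by differences from -5.44 to -0.93 with a median of -3.71, and the groups did not overlap at 10 of them. In the Tak1/Casp8 livers 5 probe sets were dim in every array. The largest difference was at probe set 10585406, with 5.61 ± 0.63 against 11.05 ± 0.18, which is 43.4-fold lower. Probe set 10585400 followed, at 5.53 against 10.62 (34.1-fold lower). The exception was the first in ID order, 10585399, at 8.08 ± 0.50 against 9.02 ± 0.36, where the groups overlapped.

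**Figure D2:**
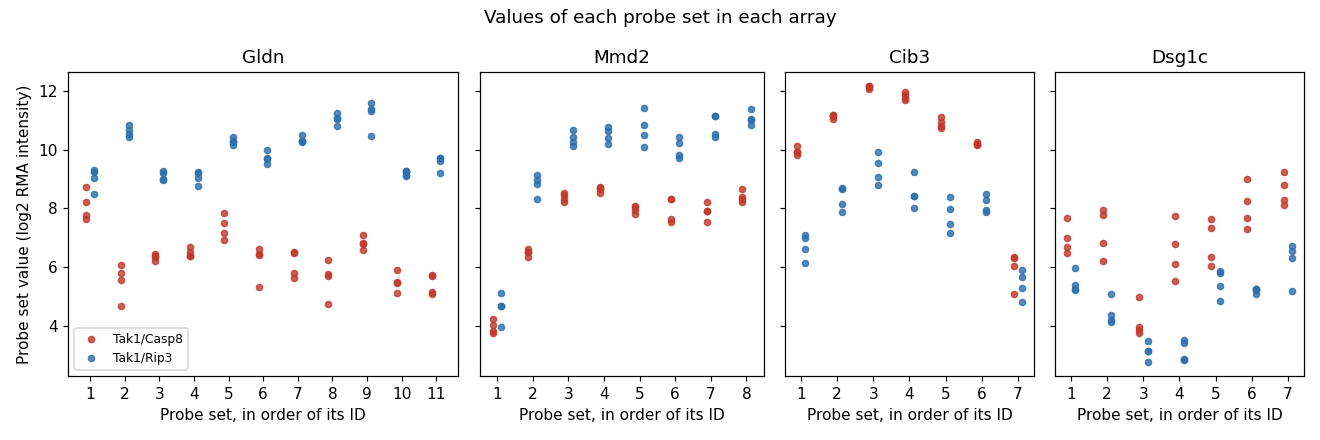
Value of each probe set (log2 RMA intensity) in each array for the selected genes with several probe sets, in order of probe set ID; points are arrays, coloured by group. The Gldn groups are separate at all but the first of 11 probe sets, and the groups overlap at 1 dim probe set of Mmd2 and 1 of Cib3.

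The genes of the proteins that gliomedin works with at the node moved in both directions. Of 9 measured node genes, Cntnap1, the contactin-associated protein of the paranode, was lower by a difference of -0.89 ± 0.14 (SE; limma, Benjamini-Hochberg adjusted p = 0.00522), and Dag1, dystroglycan, rose by 0.48 ± 0.10 (SE; adjusted p = 0.0162). The other 7 were not called, among them the ankyrin Ank3 (-0.46, limma adjusted p = 0.147) and the gliomedin receptor gene Nfasc (0.41, adjusted p = 0.169). Against 6.69% of all genes called, 2 of 9 were called here, and 5 of 9 had an unadjusted p under 0.05 in limma (55.6%, against 21.1% of all genes). The median difference over the 9 was 0.11, against 0.01 over all genes. Nfasc was called higher with the mean over its probe sets (0.55), the brighter ones (0.44) or only the brightest (1.31), and Ank3 was called lower without Tak1/Casp8 replicate 1 (-0.63). The Dag1 call was lost without Tak1/Rip3 replicate 4, and that of Cntnap1 with only the brightest probe set, where the difference was -0.20.

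Of 13 measured genes with an olfactomedin domain, none of the 12 beside Gldn was called. Their lowest adjusted p values were those of Adgrl2, an adhesion receptor (0.38, limma adjusted p = 0.0785), Olfml3 (-0.77, adjusted p = 0.0936) and Adgrl1 (-0.44, adjusted p = 0.163). The median of the family, Gldn included, was 0.01. At an unadjusted p under 0.05, 4 of the other 12 stood in limma, against 21.1% of all genes. Adgrl2 was called higher without Tak1/Rip3 replicate 3 (0.46) or with arrays shifted to 1 median (0.45), and Adgrl1 lower without Tak1/Rip3 replicate 2 (-0.58) or as a mean over its probe sets (-0.38). Schwann cell and nerve markers gave no call in 8 measured genes in limma (2 at an unadjusted p under 0.05), and their mean level was 7.42 to 7.70 in the Tak1/Casp8 and 7.51 to 7.59 in the Tak1/Rip3 livers. The peripheral myelin gene Pmp22 (-0.45, adjusted p = 0.0677 in limma) was called lower in 8 of the other settings, among them omission of Tak1/Rip3 replicate 2 (-0.54) or Tak1/Casp8 replicate 3 (-0.53).

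Mmd2 was also lower in the Tak1/Casp8 livers. Its gene value was 7.87, 7.80, 8.08 and 8.26 in Tak1/Casp8 replicates 1 to 4, and 10.66, 10.50, 10.42 and 10.15 in the Tak1/Rip3 replicates. No value of one group came within 1 log2 unit of the other. The means were 8.00 ± 0.21 and 10.43 ± 0.21, a difference of -2.43 (5.38-fold lower). Of its 8 probe sets, 7 did not overlap between the groups, and differences ran from -2.92 to -0.64 with a median of -2.21. The smallest belonged to probe set 10535332, which was dim in all 8 arrays, at 3.95 against 4.60. At the other 7 the difference was between -2.92 and -1.84, and their Tak1/Rip3 means lay between 8.81 and 11.07.

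Mmd2 aside, which was not tested, no member of the PAQR family was called as reported here. The closest paralog, Mmd, which is named for its rise as monocytes become macrophages, differed by -0.37 ± 0.14 (SE; limma, Benjamini-Hochberg adjusted p = 0.168). The adiponectin receptor Adipor2 differed by -0.38 (adjusted p = 0.117 in limma), Paqr5 by -0.44 (adjusted p = 0.129) and Paqr3 by -0.36 (adjusted p = 0.163). The median over the 11 measured members was -0.36, against 0.01 over all genes, with 0 called higher and, Mmd2 aside, 0 of 10 called lower in limma. At an unadjusted p under 0.05 there were 5 of those 10, against 21.1% of all genes. Adipor2 was called lower in 3 of the other settings (-0.44 as a mean over its probe sets, -0.43 with the brighter ones and with array weights). So was Paqr3 in 3: -0.41 as a mean, -0.49 without Tak1/Casp8 replicate 4 and -0.48 without Tak1/Rip3 replicate 2 as well. Kupffer cell and macrophage markers gave no call in 10 genes in limma (1 at an unadjusted p under 0.05), and their mean level lay between 10.2 and 10.7 in both groups.

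Cib3 was the largest increase among the 8 genes. Its gene value was 11.12, 10.96, 10.73 and 10.82 in Tak1/Casp8 replicates 1 to 4. In the Tak1/Rip3 livers it was 8.40, 8.42, 7.96 and 7.86. The groups were separate, and Tak1/Rip3 replicates 1 and 2 were above replicates 3 and 4. The means were 10.90 ± 0.17 and 8.16 ± 0.29, a difference of 2.75 (6.71-fold higher). In both groups the gene stood above the dim range. At 6 of 7 probe sets the groups did not overlap, and the largest difference was 3.30 (9.84-fold) at probe set 10579653, with 11.82 against 8.52. Probe set 10579656 was dim in all 8 arrays, at 5.95 against 5.41, and overlapped.

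The relatives of Cib3 stayed uncalled. Cib1, the widely expressed member of the family, had nearly the same mean in both groups (11.20 and 11.18), and Cib2 differed by -0.38 (limma, Benjamini-Hochberg adjusted p = 0.326) and Cib4 by -0.12 (adjusted p = 0.756). Of the hair cell channel genes that CIB proteins work with, Tmc2 differed by 0.40 (limma adjusted p = 0.208) and Tmie by -0.11 (adjusted p = 0.549). Cib3 aside, 0 of 8 genes of this list were called in limma, against 6.69% of all genes. At an unadjusted p under 0.05 in limma there was 1 of 8, against 21.1% of all genes. The median over all 9 was -0.03.

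Skint7 was dim in the Tak1/Rip3 livers and near the array median in the Tak1/Casp8 livers. Its single probe set, 10507060, read 8.06, 8.14, 8.40 and 8.36 in Tak1/Casp8 replicates 1 to 4, and 5.28, 5.90, 6.07 and 5.82 in the Tak1/Rip3 replicates. The lowest Tak1/Casp8 value lay well above the highest Tak1/Rip3 value. The means were 8.24 ± 0.17 and 5.77 ± 0.34, a difference of 2.47 (5.55-fold higher). With 1 probe set the gene value has no second reading along the transcript. Of the chosen genes, Skint7 alone shares a chromosome with a targeted gene, Map3k7, 80.0 Mb away.

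The other Skint genes measured were dim in both groups. Skint4, which lies next to Skint7, had means of 4.31 and 4.43, and Skint2, Skint3, Skint9, Skint10 and Skint11 had means between 3.27 and 4.01. Their 6 differences ran from -0.13 to 0.01 and none was called in limma (0 at an unadjusted p under 0.05), while Skint1, Skint5, Skint6 and Skint8 were not measured under a symbol of their own. Of 9 butyrophilin genes, relatives of the Skint family, none was called and 0 had an unadjusted p under 0.05; the lowest adjusted p in limma was 0.334 for Btn2a2 (0.31), followed by Btnl4 (0.32, adjusted p = 0.443). T cell markers gave no call in 8 genes in limma (1 at an unadjusted p under 0.05), and Trdc and Lck of that list were not measured. Their mean level was 6.56 to 6.67 in the Tak1/Casp8 and 6.63 to 6.74 in the Tak1/Rip3 livers. Cd8a (-0.21, limma adjusted p = 0.196) had the lowest p. Cd4 (-0.17) was called lower with the brighter of its probe sets (-0.53).

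Dsg1c was dim in every Tak1/Rip3 liver and higher, with a wide spread, in the Tak1/Casp8 livers. Its gene value was 7.75, 6.35, 7.66 and 6.82 in Tak1/Casp8 replicates 1 to 4, and 5.25, 4.84, 5.08 and 5.20 in the Tak1/Rip3 replicates. Replicates 1 and 3 of the Tak1/Casp8 livers were the high ones. Replicate 2, the lowest, was still above every Tak1/Rip3 liver but was itself dim, under its array's lower quartile of 6.47. The means were 7.15 ± 0.67 and 5.09 ± 0.18, a difference of 2.05 (4.15-fold higher). The Tak1/Casp8 SD of 0.67 stands beside a median of 0.17 over all genes. At all 7 probe sets the groups did not overlap, and the differences ran from 1.02 to 3.38 with a median of 2.41. Of these, 6 were dim in every Tak1/Rip3 array, and probe set 10454108 was dim in all 8 arrays (4.14 against 3.12). The largest difference, at probe set 10454109, was 6.54 against 3.15 (10.4-fold), and 2 of its 4 Tak1/Casp8 values were dim.

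The mouse genome holds 3 desmoglein 1 genes side by side, and 12 further probe sets carry the symbols Dsg1a, Dsg1b and Dsg1c together. These cannot be assigned to 1 gene and are not counted as members. All 12 were higher in the Tak1/Casp8 livers, by 0.47 to 5.31 with a median of 2.52, and 10 did not overlap between the groups. At probe set 10454115 the means were 8.77 ± 0.84 and 3.46 ± 0.41. The median over the 12 was 9.48, 8.33, 9.28 and 7.83 in Tak1/Casp8 replicates 1 to 4 and 6.39, 5.87, 5.59 and 6.07 in the Tak1/Rip3 replicates. Replicates 1 and 3 were again the highest of the Tak1/Casp8 livers. Of the probe sets with the symbol of 1 copy, the only one of Dsg1a read 6.56 against 6.84 and overlapped. Dsg1b, with 4, differed by 0.47 ± 0.16 (SE; limma, Benjamini-Hochberg adjusted p = 0.107), and its probe set 10454131 by 2.34 (5.88 against 3.54). As the mean over those 4 probe sets, Dsg1b was called higher, by 0.80. How the signal divides between the 3 copies is uncertain.

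**Figure D3:**
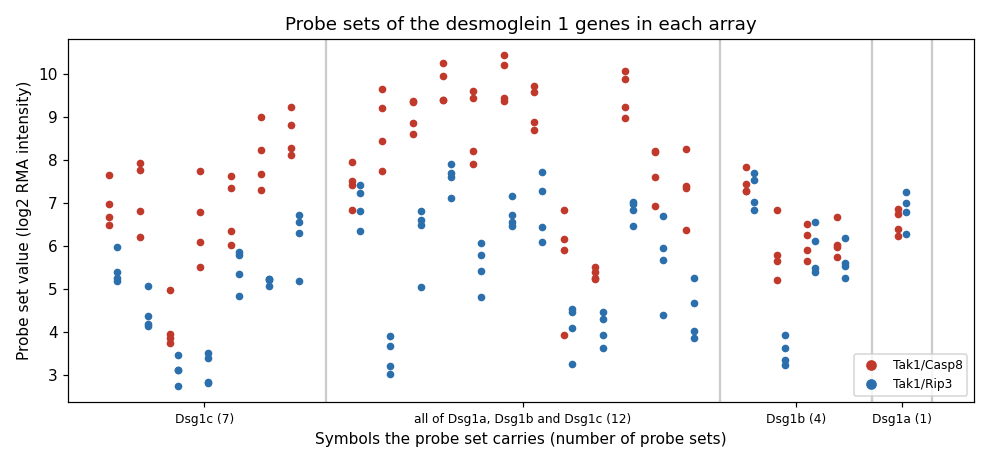
Values (log2 RMA intensity) of the probe sets that carry Dsg1a, Dsg1b or Dsg1c alone and of the 12 that carry all 3 symbols; points are arrays, coloured by group. The Dsg1c and shared probe sets lie higher in the Tak1/Casp8 livers, while the single Dsg1a probe set overlaps.

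Markers of epithelia that carry desmosomes were set beside Dsg1c. Of 9 measured bile duct markers, Spp1, osteopontin, was higher by 0.97 ± 0.20 (SE; limma, Benjamini-Hochberg adjusted p = 0.0166), and Muc1, a surface mucin, was lower by a difference of -1.49 ± 0.25 (SE; adjusted p = 0.00691). The adhesion molecule Epcam (-1.05, limma adjusted p = 0.0651) and the keratins Krt7 (-0.30, adjusted p = 0.221) and Krt19 (-0.30, adjusted p = 0.400) were not called, though Epcam was without Tak1/Casp8 replicate 1 (-1.32) and with the filter at the 30th percentile of level (-1.05). Calls were thus 2 of 9, against 6.69% of all genes, and 4 of 9 had an unadjusted p under 0.05 in limma (44.4%, against 21.1% of all genes). The mean level of the list was 8.74, 8.02, 8.53 and 7.88 in Tak1/Casp8 replicates 1 to 4, highest in the same replicates 1 and 3 as Dsg1c, and 8.34 to 8.64 in the Tak1/Rip3 livers. Replicates 1 and 3 were also the highest Tak1/Casp8 livers for some other lists. Kupffer cell and macrophage markers had mean levels of 10.66, 10.23, 10.59 and 10.36 in Tak1/Casp8 replicates 1 to 4. Adherens junction genes had 10.23, 10.18, 10.24 and 9.99. Not every list did so, and T cell markers were highest in Tak1/Casp8 replicate 2 (6.67). The part of any of these cells in the Dsg1c values was not tested. With only the brightest probe set, Muc1 differed by -0.18 and was not called. Of 11 markers of squamous epithelium none was called in limma (2 at an unadjusted p under 0.05), and their mean level was 6.47 to 6.65 in the Tak1/Casp8 and 6.34 to 6.71 in the Tak1/Rip3 livers. The skin keratin Krt14 had means of 6.81 and 6.93. Lgals7 had the lowest adjusted p of that list (0.38, limma adjusted p = 0.0927) and was called with quantile normalisation (0.41) and array weights (0.36). Sprr1a, of the same list, lay the other way (-0.30, limma adjusted p = 0.215) and was called in no setting.

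The desmosome partners stood well above the array medians in both groups, and none of the 3 passed the test. Dsg2, the desmoglein of simple epithelia, read 10.78, 10.64, 10.79 and 10.81 in Tak1/Casp8 replicates 1 to 4, and 10.50, 9.97, 10.48 and 10.21 in the Tak1/Rip3 replicates. Every Tak1/Casp8 value lay above every Tak1/Rip3 value, with replicate 2 the lowest of each group. Such a separation, for Dsg2 here and Dsp below, was seen in 14.6% of all genes in either direction. The means were 10.75 ± 0.08 and 10.29 ± 0.25. The difference of 0.46 ± 0.13 (SE) was 1.38-fold, with a Benjamini-Hochberg adjusted p of 0.0551 in limma. That p moved to either side of 0.05 under other settings, from 0.0136 to 0.284, and it was 0.0259 with the arrays shifted to 1 median.

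Dsp, desmoplakin, read 10.45, 10.27, 10.50 and 10.12 in Tak1/Casp8 replicates 1 to 4, and 9.99, 9.91, 9.98 and 10.07 in the Tak1/Rip3 replicates. The groups were separate, but the lowest Tak1/Casp8 value, replicate 4, lay just above the highest Tak1/Rip3 value. The means were 10.34 ± 0.18 and 9.99 ± 0.07, a difference of 0.35 ± 0.11 (SE; 1.27-fold; limma, Benjamini-Hochberg adjusted p = 0.0823). Without Tak1/Casp8 replicate 4 the difference was 0.42 and passed the test, at an adjusted p of 0.0333 in limma. Over all settings that p ran from 0.0333 to 0.280.

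Jup, plakoglobin, read 10.75, 10.68, 10.63 and 10.67 in Tak1/Casp8 replicates 1 to 4, and 11.03, 10.61, 10.72 and 10.57 in the Tak1/Rip3 replicates. The groups overlapped, and the highest value of all was that of Tak1/Rip3 replicate 1. The means were 10.68 ± 0.05 and 10.73 ± 0.21. The difference was -0.05 ± 0.11 (SE; limma, Benjamini-Hochberg adjusted p = 0.839), and its sign turned to 0.02 with the arrays shifted to 1 median and to 0.05 without Tak1/Rip3 replicate 1.

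The probe sets of Dsg2 and Dsp were mostly higher in the Tak1/Casp8 livers, and those of Jup were not. In Dsg2 17 of 18 were higher, with differences from -0.13 to 0.69 and a median of 0.36, and 10 did not overlap between the groups. In Dsp 23 of 26 were higher, from -1.19 to 0.69 with a median of 0.41, and 13 did not overlap. In Jup 6 were higher and 9 lower, from -0.20 to 0.33 with a median of -0.06, and none was free of overlap. Over all probe sets the groups did not overlap at 11.5%, in either direction. Over all probe sets 1.64% were called in limma at a Benjamini-Hochberg adjusted p under 0.05, and 0 of these 59 were, the lowest adjusted p being 0.0557 in Dsp, 0.105 in Dsg2 and 0.339 in Jup. At an unadjusted p under 0.05 in limma, 9 of 18 stood in Dsg2, 12 of 26 in Dsp and 0 of 15 in Jup, against 15.6% of all probe sets. Settings with trend and robust variances called 4 of the 59, and arrays shifted to 1 median called 1. Probe sets of 1 gene share their RNA and are not replicates.

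Single arrays stood apart at a few of these probe sets. In Dsp, Tak1/Casp8 replicate 4 read 3.81 at the third probe set in ID order (10404652), where the other Tak1/Casp8 livers read 9.75 to 10.1, and 4.33 at the eighth (10404657), where they read 10.8 to 11.1. At the second of these it lay 6.68 below the median of the others. Over all probe sets, values at least 5 log2 units below the rest of the group numbered 264 in Tak1/Casp8 replicate 4, 19 in Tak1/Casp8 replicate 2, 2 in Tak1/Rip3 replicate 2 and 0 in the other arrays. Tak1/Rip3 replicate 2 lay at least 1 log2 unit below the rest of its group at 6 probe sets of the partners. Without both of these arrays, a setting chosen once the data were known, the differences were 0.34 for Dsg2, 0.39 for Dsp and -0.09 for Jup.

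**Figure D4:**
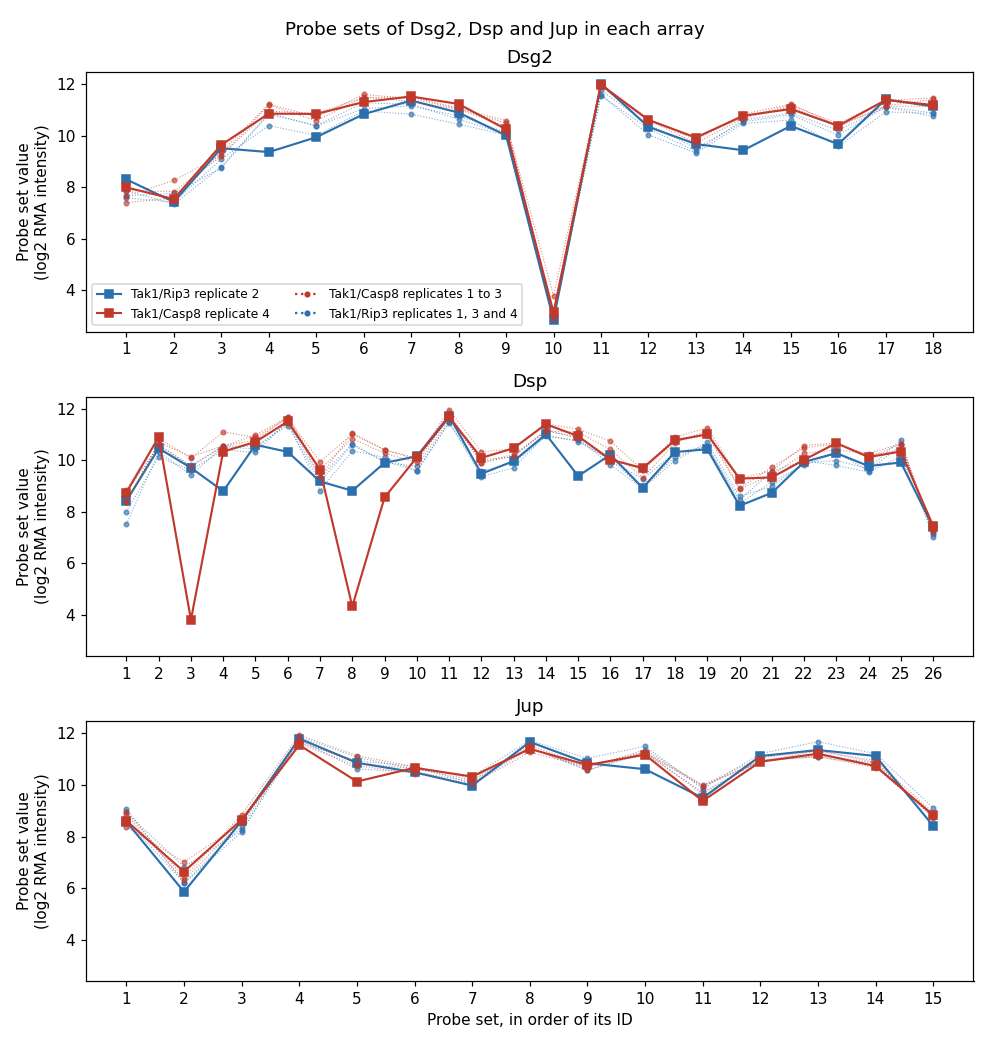
Values (log2 RMA intensity) of the 18 Dsg2, 26 Dsp and 15 Jup probe sets in each array, in order of probe set ID; points are arrays, coloured by group. Most Dsg2 and Dsp probe sets lie slightly higher in the Tak1/Casp8 livers, and 1 Tak1/Casp8 array falls to 3.81 and 4.33 at 2 Dsp probe sets.

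The desmosome genes as a whole gave a mixed picture. Besides Dsg1c 17 were measured, of which 1 was called higher and 1 lower, against 2.64% and 4.05% of all genes, and 8 had an unadjusted p under 0.05 in limma (47.1%, against 21.1% of all genes). The median over all 18 was 0.19, against 0.01 over all genes. Pkp1, plakophilin 1, a plaque protein best known from stratified epithelia, was lower: it read 6.68, 6.27, 6.66 and 6.85 in Tak1/Casp8 replicates 1 to 4 and 7.82, 7.72, 7.79 and 7.76 in the Tak1/Rip3 replicates. The groups were separate, and the difference was -1.16 ± 0.12 (SE; 2.23-fold lower; limma, Benjamini-Hochberg adjusted p = 0.00073). It shrank to -0.50 with only the brightest probe set and to -0.52 with the brighter ones, and passed the test in neither. Dsc3, a desmocollin also best known from stratified epithelia, rose by 0.46 ± 0.10 (SE; adjusted p = 0.0264 in limma), but was dim in both groups (5.71 and 5.25). Its call was lost without any 1 of 5 arrays (Tak1/Rip3 replicates 1 and 4 and Tak1/Casp8 replicates 1, 2 and 4), and the sign turned to -0.13 with only the brightest probe set.

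**Figure D5:**
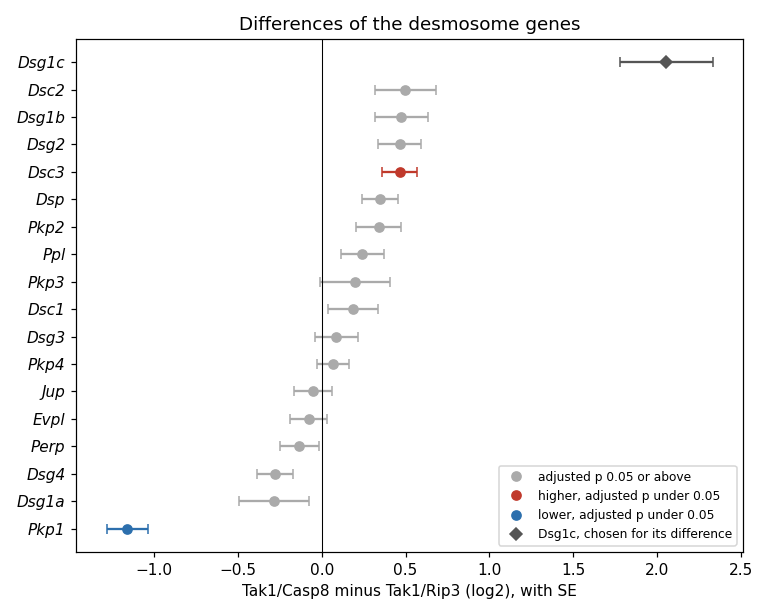
Difference (log2; positive values are higher in Tak1/Casp8) of each measured desmosome gene, with its SE. Pkp1 lies lowest at -1.16 and Dsg1c, selected on its difference, highest at 2.05, while Dsg2 and Dsp lie at 0.46 and 0.35 without passing the test.

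The desmocollin Dsc2 (0.50 ± 0.18 SE, limma adjusted p = 0.144) and the plakophilin Pkp2 (0.34 ± 0.13 SE, adjusted p = 0.176), the forms usual in simple epithelia, were not called. The keratins that desmosomes anchor in hepatocytes, Krt8 (0.01) and Krt18 (0.13, limma adjusted p = 0.629), were not called either. Among 7 measured keratins and linkers only Krt20, a keratin of gut epithelium, was called, at 6.53 against 7.88 (-1.34 ± 0.19 SE, 2.54-fold lower; limma, Benjamini-Hochberg adjusted p = 0.00293). Adherens junctions, which join the same cells through actin, gave 0 calls in 13 genes in limma and a median of -0.01. An unadjusted p under 0.05 in limma was reached by 3 of them. Over all genes, 6.69% were called and 21.1% had such an unadjusted p. Their lowest adjusted p was that of Afdn, afadin (0.43, adjusted p = 0.0561 in limma), followed by the nectin genes Nectin1 (0.24, adjusted p = 0.169) and Nectin3 (0.35, adjusted p = 0.218). Afdn was called higher in 9 of the other settings, among them without Tak1/Casp8 replicate 4 (0.49).

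By gene values, which leave out probe sets with several symbols, no gene beside the selected ones differed as much as they did. For Dsg1a and Dsg1b, beside Dsg1c, this is uncertain. The 12 probe sets they share with Dsg1c differed by a median of 2.52 and cannot be assigned to 1 gene. Of 20 measured neighbours, 2 on each side of each selected gene, 1 was called higher and none lower, against 6.69% of all genes called. Their differences ran from -0.28 to 0.50. The one called was Dmxl2, beside Gldn, which rose by 0.39 ± 0.10 (SE; limma, Benjamini-Hochberg adjusted p = 0.0445). This call was lost without any 1 of the 8 arrays. Gldnos, on the opposite strand of Gldn, differed by 0.04 (limma adjusted p = 0.934). The neighbours of Cib3 differed by -0.10 to 0.20 and those of Mmd2 by at most 0.19.

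Within the groups the members were compared by how their arrays deviated. Over the 8 deviations of the arrays from their group means, Pearson's r was 0.18 between Gldn and Mmd2, -0.58 between Gldn and Cib3 and -0.63 between Cib3 and Skint7. Dsg1c and Dsp had r = 0.78, Dsg2 and Jup 0.66 and Skint7 and Jup -0.80. All pairs share the arrays and their normalisation, so these values are descriptions over 8 arrays. The genes most like each selected gene by this measure were Tigd3, Nek10 and Pgm5 for Gldn (each 0.98), Zfp606 (0.99), Wnt10a (0.99) and Colgalt2 (0.97) for Mmd2, and Lyzl6 (0.97), Agtr1a (0.97) and AI429214 (0.96) for Cib3. For Skint7 they were G6pc2 (0.98), Asic3 (0.96) and Prr7 (0.96), and for Dsg1c Iqce (0.99), Dbi (0.98) and Dmbt1 (0.98). Each is among the 3 highest of 19560 genes over 8 points. Of these 15 genes Colgalt2 (-0.42, adjusted p = 0.0191 in limma) and Dbi (-0.78, adjusted p = 0.0347) were called, both lower, and Wnt10a (-0.54) was called lower without Tak1/Rip3 replicate 4 (-0.68) or Tak1/Casp8 replicate 4 (-0.65). The Colgalt2 call failed on omission of Tak1/Rip3 replicate 1 or of Tak1/Casp8 replicate 1 or 2, and with only the brightest probe set (-0.97). The Dbi call failed on omission of any array but Tak1/Casp8 replicates 1 and 3. Dbi also shrank, to -0.24 as a mean over its probe sets, -0.13 with the brighter ones and -0.04 with only the brightest. It was called in none of these.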

How the data were processed

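The deposited values were log2 intensities. The submitters' processing notes name RMA as the authors' normalisation, with no version. RMA aligns the arrays and compresses differences near background. Of 223771 probe sets, 206316 had 1 gene symbol, 3734 several and 13721 none in the platform annotation; only the first kind named a gene. Of the symbols, 2571 were updated through RefSeq's gene table (assembly GRCm38.p6), and 19456 of 19560 matched it. The sources used here give no positions of probe sets.

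A gene value was the median over its probe sets, with no filter. The genotype labels set the groups. limma 3.58.1 in R 4.3.3 (lmFit and eBayes, two-sided, 1 term for group, all 8 arrays) was run over all genes and, separately, over all probe sets with 1 symbol; adjusted p means Benjamini-Hochberg over each whole table, called under 0.05. It was tested on simulated data with 200 changed genes. Folds are 2 raised to the log2 difference. Plots used matplotlib 3.10.9 and Python 3.11.15. With 4 arrays per group, their number limits the precision.

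The members, gene lists and tests were chosen with earlier results of these data known. The text names the 8 members, up to 4 members with the smallest adjusted p in each list, close paralogs, the 2 measured genes on each side of each selected gene, and the 3 genes most like each by Pearson's r of the deviations from group means. Krt8, Krt18, Krt14, Dsg1a, Dsg1b, Dsc2, Pkp2, Krt7 and Krt19, where outside this rule, were named as well-known members of their lists after their values were seen. Alternatives were the mean, brightest or brighter probe sets of a gene, quantile normalisation, arrays shifted to 1 median, a minimum level at the 30th percentile, trend and robust variances, array weights, a threshold of 0.01, and omission of each array. Omission of Tak1/Casp8 replicate 4 with Tak1/Rip3 replicate 2, and the alternatives for the partners' probe sets, were chosen after seeing the data.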

Additional observations from a re-analysis of the deposited data

Results flagged for a closer look

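Among 200 groups of 4 values, a gene value or a probe set of a member in 1 genotype, 16 held 1 array far from the other 3 by Dixon's test at the 95% level. Chance alone gives about 1 in 20 such groups. For gene values these were Gldn in Tak1/Rip3 replicate 3, at 9.99 against 9.69 to 9.73 in the other livers of that genotype, and Dsg2 in Tak1/Casp8 replicate 2, at 10.64 against 10.78 to 10.81.

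Dsp held 9 of the 16, and it has 26 of the 93 probe sets of the members. Most of the 9 lay in Tak1/Casp8 replicate 4 and Tak1/Rip3 replicate 2. In these arrays 5.51% and 6.05% of all probe sets lay at least 1 log2 unit below the other arrays of the group. In Tak1/Casp8 replicate 4 its probe sets 3, 8 and 9, numbered in ID order, read 3.81, 4.33 and 8.56, where the other Tak1/Casp8 livers read at least 9.75, 10.8 and 10.3. In Tak1/Rip3 replicate 2 probe sets 4, 6, 8 and 15 read 8.80, 10.33, 8.82 and 9.39, where the others read at least 10.4, 11.3, 10.4 and 10.7. Dsp probe set 17 read 9.28 in Tak1/Rip3 replicate 3 against 8.91 to 8.93, and probe set 23 read 10.41 in Tak1/Casp8 replicate 2 against 10.63 to 10.67.

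Dsg2 probe set 14 read 9.43 in Tak1/Rip3 replicate 2 against 10.47 to 10.61. Dsg1c probe set 3 read 4.98 in Tak1/Casp8 replicate 1 against 3.76 to 3.95, and probe set 6 read 5.08 in Tak1/Rip3 replicate 3 against 5.22 to 5.25. Gldn probe set 6 read 5.31 in Tak1/Casp8 replicate 1 against 6.41 to 6.61, and probe set 7 read 10.51 in Tak1/Rip3 replicate 3 against 10.26 to 10.28. All are log2 intensities.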

How the results depend on the processing

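No paired analysis was possible because replicate numbers here are names of arrays, and mice of the 2 genotypes are not paired in the labels. Genes called higher numbered 516, and 311 when only a gene's brightest probe set was used, 857 with arrays shifted to 1 median, 776 with array weights and 141 at a threshold of 0.01; genes called lower numbered 792, and 448 with the brightest probe set and 265 at 0.01. With each array left out in turn these counts ran from 263 (without Tak1/Rip3 replicate 4) to 487 and from 438 (without Tak1/Rip3 replicate 1) to 860; without Tak1/Casp8 replicate 4 and Tak1/Rip3 replicate 2 together they were 505 and 951. They moved by over 1.5 times also without Tak1/Casp8 replicate 2 (279 higher, 486 lower), and the higher ones without Tak1/Casp8 replicate 1 (333). Of 18 desmosome genes measured, those called numbered 3, and 5 with arrays shifted or weighted and 2 to 3 with an array left out. Dsg1c, which was selected on its difference, is among the genes counted. Without it, 1 of 17 was called higher and 1 lower as reported. Calls over all 19560 genes were 857 higher and 631 lower with arrays shifted, and 776 higher and 1181 lower with array weights.

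Dsg2 passed the test in limma with the mean over its probe sets (0.36), the brighter probe sets (0.37), quantile normalisation (0.48), arrays shifted to 1 median (0.54), the 30th percentile filter (0.46), trend and robust variances (0.46) and array weights (0.41). With an array left out it ran from 0.36 to 0.53 and did not pass. Dsp passed with arrays shifted (0.42) or weighted (0.36), and with an array left out ran from 0.29 to 0.42. Jup ran from -0.11 to 0.05 and never passed. The partners' probe sets called numbered 0, 1 with arrays shifted and 4 with trend and robust variances. The summary over probe sets moved Gldn from -3.44 to -3.61 (mean), -4.04 (brighter) and -4.36 (brightest), Mmd2 from -2.43 to -2.15 (mean) and -2.66 (brightest), and Cib3 from 2.75 to 3.05 (brighter). Dsc3 turned to -0.13 with the brightest probe set. Of 1452 comparisons of other named genes with their reported call, 1361 kept their side of the threshold, 43 lost the call and 47 gained it; the sign turned in 69, of which 68 were of genes not called and 1 was Dsc3. The causes were not tested. The 30th percentile filter removed Dsg1c. Near background, RMA compresses differences, which touches Gldn in the Tak1/Casp8 and Dsg1c and Skint7 in the Tak1/Rip3 livers. Dsg1c was also dim in Tak1/Casp8 replicate 2.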
